A study of Mus musculus with 8 samples.

Results

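The 9 genes Ifnar1, Ifnar2, Ifngr1, Ifngr2, Jak1, Jak2, Tyk2, Stat2 and Stat3 encode interferon receptor chains, the kinases bound to them and STAT transcription factors. They were chosen by symbol, with no measured value in the rule, but with earlier results of these data known. All 9 were found among the 18187 gene symbols of the deposited table. They also passed the filter that left 13278 genes for testing. Gene expression was measured by bulk RNA sequencing of mouse neutrophils linked by the labels to B16 tumors, B16 being a mouse melanoma line. The groups were 3 libraries labelled aOX40 (replicates 1 to 3) and 5 labelled IgG (replicates 2 to 6). OX40 is a receptor that costimulates T cells once they are activated, and the series title places the libraries in a study of neutrophil activation by T cell immunotherapy. Mouse strain, age and sex, dose and time of treatment, and the way the neutrophils were isolated are not stated in the labels. The labels do not tie each library to its own animal. A p-value here sets the group difference only against the scatter of these libraries, and that scatter may be technical.

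Interferon receptors have no kinase activity of their own. Type I interferons join the chains IFNAR1, which carries the kinase TYK2, and IFNAR2, which carries JAK1. Interferon-gamma joins IFNGR1, which carries JAK1, and IFNGR2, which carries JAK2. The kinases phosphorylate STAT proteins. STAT2 and IRF9 take part in the complex ISGF3, which binds interferon-stimulated response elements, while STAT dimers bind gamma-activated sites. STAT3 serves receptors such as those for G-CSF, IL-6 and IL-10, and in neutrophils it is best known for its part in the response to G-CSF. The genes for STAT2 and several of its partners are themselves induced by interferon.

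Library totals were 69629957 to 73480484 counts in aOX40 and 52682208 to 63238045 counts in IgG, without overlap (exact two-sided permutation p = 0.0357, which is the smallest possible with 3 and 5 libraries). Depth and group can therefore not be told apart. Neutrophil markers summed to 36590 to 42260 CPM (counts scaled to a common library total, with TMM factors) in aOX40 and 28700 to 41510 CPM in IgG. The defining markers of T and B cells, Cd3d, Trac and Cd79a, stayed between 0 and 1.71 CPM. The 10 measured T and NK cell markers of 18 listed summed to 1.30 to 5.17 CPM in aOX40 and 1.66 to 5.08 CPM in IgG. The 15 measured monocyte and macrophage markers of 18 summed to 1085 to 1532 CPM in aOX40 and 1403 to 2037 CPM in IgG, most of it from Cd68 and Ly6c2, which neutrophils can also express. The sum follows Cd68, at a mean of 639 CPM in aOX40 libraries, against 1270 CPM in IgG libraries, while 10 of the 12 markers tested had log2 fold changes above 0, with a median of 0.97. Ly6c2 averaged 547 CPM in aOX40 libraries, against 425 CPM in IgG libraries, and Adgre1 averaged 21.6 CPM in aOX40 libraries, against 6.12 CPM in IgG libraries. C1qa, a macrophage marker, was at most 1.11 CPM in any library, and Csf1r, another, was at 38.0 to 75.6 CPM in aOX40 and 4.51 to 25.1 CPM in IgG. The 9 measured dendritic cell markers of 12 summed to 24.0 to 36.3 CPM in aOX40 and 37.7 to 62.2 CPM in IgG (exact permutation p = 0.0357, the smallest possible). The 3 measured B cell markers of 9, nearly all Ighm, summed to 65.1 to 77.7 CPM in aOX40 and 30.1 to 251 CPM in IgG, and the 6 measured fibroblast and endothelial markers of 11 to 5.10 to 13.6 CPM in aOX40 and 11.6 to 59.9 CPM in IgG. Melanoma markers, all 9 measured, summed to 39.3 to 86.0 CPM in aOX40 and 67.3 to 389 CPM in IgG, largely from Gpnmb. Mitochondrial messenger RNAs made up 0.0998 to 0.152% of counts in aOX40 and 0.0510 to 0.0811% in IgG (exact permutation p = 0.0357). The part of these differences in the results below was not tested.

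None of the 9 genes passed the test between aOX40 and IgG. With edgeR's quasi-likelihood test and Benjamini-Hochberg adjustment over all genes tested, 0 of 9 had an adjusted p below 0.05, and 3 of 9 had an unadjusted p below 0.05. Of all 13278 genes tested, 3287 had an unadjusted p below 0.05 in that fit, so the 3 of 9 are not read as a result. DESeq2 called 1 of 9 (Stat2), limma voom called 0, and limma voom with quality weights called 1 (Stat2). Over all 13278 genes these 3 methods called 1433, 724 and 1305, in that order. In the same edgeR fit 5.65% of all genes tested passed, 2.64% higher and 3.00% lower in aOX40. Log2 fold changes of aOX40 over IgG were above 0 for 5 of the 9 genes and below 0 for 4, with a median of 0.13 against 0.045 for all genes tested. In 4 of the 9 the libraries of the groups did not overlap in CPM, with Tyk2 and Ifngr2 higher and Stat2 and Ifnar2 lower in aOX40. Of all genes tested, 8.22% showed no overlap with aOX40 higher and 7.75% with aOX40 lower. Fewer cells that carry a transcript and less of it per cell cannot be told apart in bulk libraries.

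**Figure D1:**
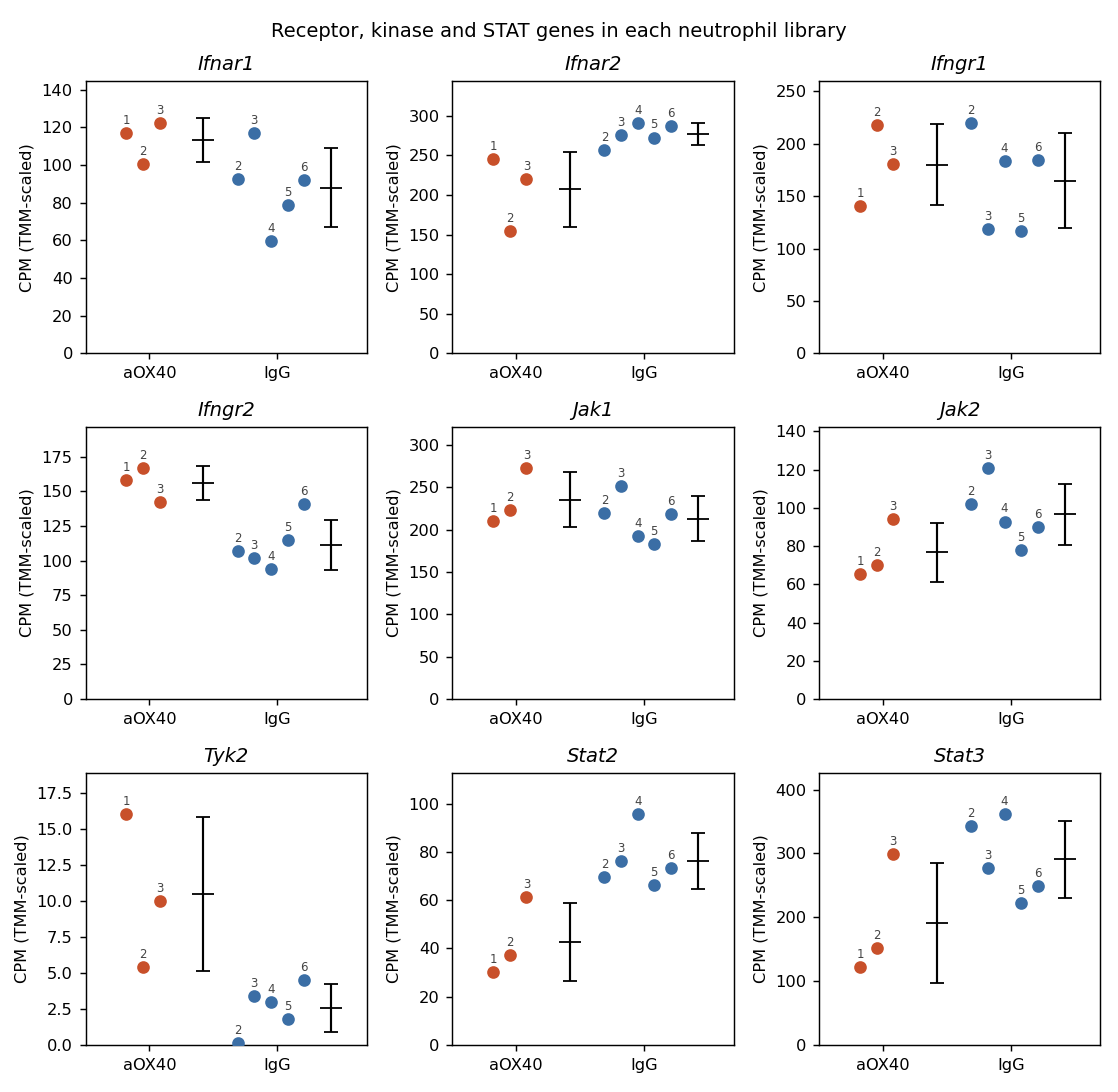
CPM (y axis, scaled with TMM factors) of each of the 9 genes, 1 panel per gene, with aOX40 libraries left and IgG libraries right of the x axis; numbers are replicate numbers and bars are mean ± SD (n = 3 and n = 5). Stat2 and Ifnar2 lie below, and Tyk2 and Ifngr2 above, all IgG libraries in each aOX40 library, while the other 5 genes overlap.

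The type I interferon receptor chains had log2 fold changes on opposite sides of 0, neither past the threshold. Ifnar1, the chain that carries TYK2, had 117, 100.5 and 123 CPM in aOX40 libraries 1 to 3, against 92.5, 117, 59.8, 78.6 and 92.3 CPM in IgG libraries 2 to 6. The groups overlapped only through IgG replicate 3, which stood at the level of the aOX40 libraries. The log2 fold change of Ifnar1 was 0.36 (SE 0.23, 95% interval -0.14 to 0.87, edgeR adjusted p = 0.354). Ifnar2, the chain that carries JAK1 and docks STAT2, had 246, 155 and 221 CPM in aOX40 libraries 1 to 3, against 257, 276, 292, 273 and 288 CPM in IgG libraries 2 to 6. Every aOX40 library lay below every IgG library, and the IgG libraries lay close together, with the highest 1.14 times the lowest. Among aOX40 libraries the highest was 1.59 times the lowest, with replicate 2 far below the others. Its log2 fold change was -0.42 (SE 0.19, interval -0.85 to 0.010, edgeR adjusted p = 0.211), and it was -0.24 without aOX40 replicate 2. The mouse gene is known to give membrane-bound and soluble forms of the chain, which counts per gene do not separate.

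The proportion of the chains within a library does not depend on the scaling of libraries. There were 2.10, 1.54 and 1.80 Ifnar2 counts per Ifnar1 count in aOX40 libraries 1 to 3, against 2.78, 2.36, 4.88, 3.47 and 3.11 in IgG libraries 2 to 6. The ratio was thus lower in each aOX40 library than in any IgG library. On the log2 scale it averaged 0.85 ± 0.23 in aOX40 (SD, n = 3) and 1.69 ± 0.39 in IgG (SD, n = 5), a difference of -0.84. The exact two-sided permutation p over the 56 splits was 0.0357, the smallest possible, and 0.0595 after Benjamini-Hochberg adjustment over the 5 gene ratios tested, so it did not pass. A ratio at the smallest possible p passes this adjustment only if most of the other ratios reach it too. Not passing therefore says little about a single ratio, here or for the kinase ratios below.

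The interferon-gamma receptor chains both had log2 fold changes above 0, and their proportion overlapped between the groups. Ifngr1, the ligand-binding chain that carries JAK1, had 141, 218 and 181 CPM in aOX40 libraries 1 to 3, against 220.3, 119, 184, 117 and 184 CPM in IgG libraries 2 to 6. Both groups spanned nearly the same range. Its log2 fold change was 0.13 (SE 0.26, interval -0.44 to 0.70, edgeR adjusted p = 0.805), and without aOX40 replicate 2 it was -0.033. Ifngr2, the chain that carries JAK2, had 158, 167 and 142 CPM in aOX40 libraries 1 to 3, against 107, 102, 93.7, 115 and 141 CPM in IgG libraries 2 to 6. The lowest aOX40 library, replicate 3, was only just above the highest IgG library, replicate 6. The log2 fold change of Ifngr2 was 0.48 (SE 0.19, interval 0.060 to 0.90, edgeR adjusted p = 0.151). Scaling by total counts alone gave 0.79 and an adjusted p of 0.0387, while that scaling moved the median over all genes tested to 0.347 on the log2 scale. The log2 ratio of Ifngr2 to Ifngr1 averaged -0.19 ± 0.31 in aOX40 and -0.53 ± 0.45 in IgG (SD, n = 3 and 5), with overlap (exact permutation p = 0.286, also 0.286 after adjustment).

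Ifnar2, Ifnar1 and Ifngr2 lie on the same strand of mouse chromosome 16, within 192841 bases (GRCm38, chr16:91372783-91565623). Between Ifnar2 and Ifnar1, from 91406164 to 91425834, lies Il10rb, which encodes a receptor chain shared by IL-10 and the lambda interferons. Il10rb had 317, 276 and 308 CPM in aOX40 libraries 1 to 3, against 344, 376, 380, 322 and 336 CPM in IgG libraries 2 to 6. Its libraries did not overlap, by a narrow margin, and its log2 fold change was -0.23 (SE 0.17, edgeR adjusted p = 0.431). Along the chromosome, then, the log2 fold changes ran -0.42 for Ifnar2, -0.23 for Il10rb, 0.36 for Ifnar1 and 0.48 for Ifngr2, none of them past the threshold. The gene model Gm21970 overlaps Ifnar2 exons on the same strand, at 0.42 CPM in aOX40 libraries, against 0.058 CPM in IgG libraries on average, far under the level of Ifnar2.

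**Figure D2:**
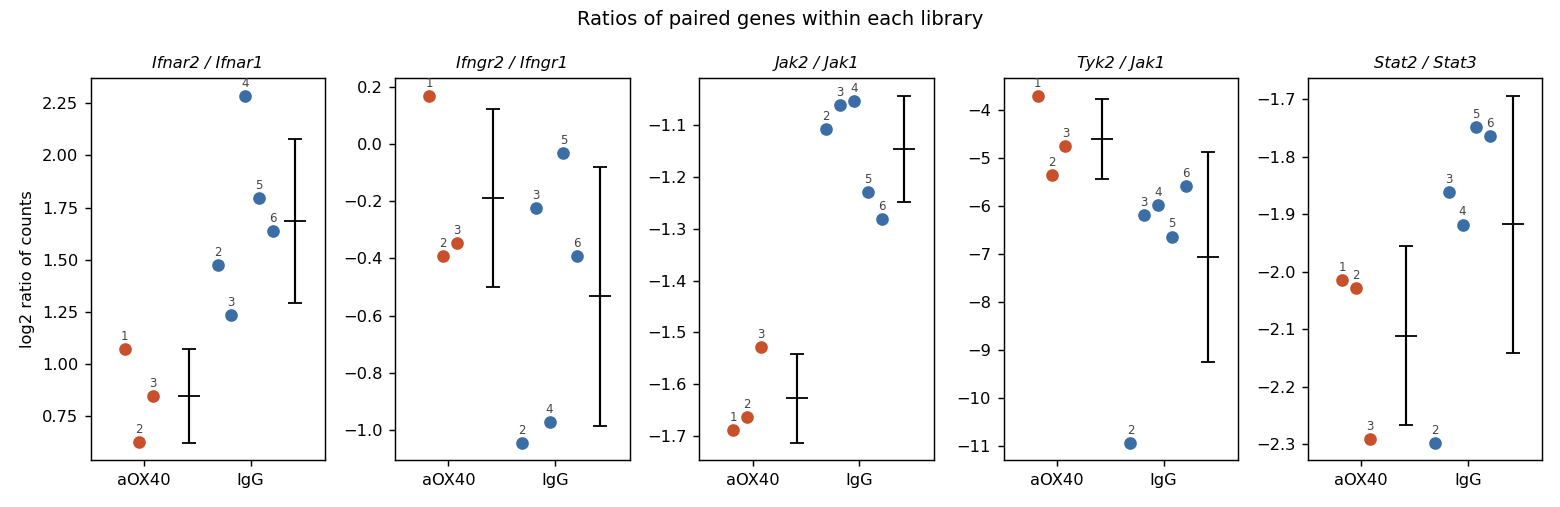
Log2 ratio of the counts of paired genes within each library (y axis), aOX40 left and IgG right, with mean ± SD (n = 3 and n = 5) and replicate numbers. The ratios of Ifnar2 to Ifnar1 and of Jak2 to Jak1 are lower, and that of Tyk2 to Jak1 higher, in each aOX40 library than in any IgG library, and the other panels overlap. The share of other gene pairs whose ratios separate in this way was not computed. Tyk2 and Ifnar2 also separate in CPM alone, and the ratios of Jak2 and Tyk2 share Jak1.

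Of the 3 kinase genes, Jak1 and Jak2 overlapped between the groups and Tyk2 did not. Jak1, which serves both interferon receptors and many others, had 211, 223 and 272 CPM in aOX40 libraries 1 to 3, against 220, 252, 193, 183 and 218 CPM in IgG libraries 2 to 6. The groups overlapped throughout, with a log2 fold change of 0.14 (SE 0.19, interval -0.27 to 0.55, edgeR adjusted p = 0.678). Jak2, which also serves the receptors for GM-CSF and G-CSF, had 65.4, 70.3 and 94.4 CPM in aOX40 libraries 1 to 3, against 102, 121, 92.9, 78.1 and 90.0 CPM in IgG libraries 2 to 6. Replicates 1 and 2 of aOX40 were below all IgG libraries, and replicate 3 was among them. The log2 fold change of Jak2 was -0.33 (SE 0.22, interval -0.81 to 0.15, edgeR adjusted p = 0.375). Set against Jak1 of the same library, Jak2 spread less. There were 0.310, 0.316 and 0.346 Jak2 counts per Jak1 count in aOX40 libraries 1 to 3, against 0.464, 0.479, 0.482, 0.426 and 0.412 in IgG libraries 2 to 6. The log2 ratio averaged -1.63 ± 0.085 in aOX40 and -1.15 ± 0.10 in IgG (SD, n = 3 and 5), a difference of -0.48, and no library of one group reached the other (exact permutation p = 0.0357, adjusted over the 5 ratios 0.0595).

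Tyk2, the kinase of IFNAR1 and of the IL-10 and IL-12 receptors, had the largest fold change of the 9 and the fewest reads. It had 1194, 482 and 804 counts in aOX40 libraries 1 to 3, against 5, 177, 162, 112 and 254 in IgG libraries 2 to 6. In CPM these were 16.1, 5.41 and 10.03 in aOX40, against 0.103, 3.42, 3.01, 1.83 and 4.50 in IgG. Each aOX40 library lay above each IgG library, but aOX40 replicate 2 only just above IgG replicate 6. The spread was wide in both groups, with the highest library 2.97 times the lowest in aOX40 and 43.9 times in IgG, where replicate 2 held nearly no reads of this gene. The log2 fold change of Tyk2 was 2.00 (SE 0.55, interval 0.78 to 3.21, edgeR adjusted p = 0.0580). With each library left out in turn it ran from 1.56 to 2.33 and the adjusted p from 0.0628 to 0.144, so it was not called in any of these, and without IgG replicate 2 it was 1.71. Scaling by total counts alone, with its upward shift of the median gene, was the only alternative that called it (2.28, adjusted p = 0.0303). The log2 ratio of Tyk2 to Jak1 averaged -4.61 ± 0.84 in aOX40 and -7.07 ± 2.19 in IgG (SD, n = 3 and 5), without overlap (exact permutation p = 0.0357, 0.0595 after adjustment). Of that difference of 2.46, 1.495 remained without IgG replicate 2.

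Stat2 was the lowest in aOX40 of the 9 genes relative to IgG. It had 30.4, 37.1 and 61.1 CPM in aOX40 libraries 1 to 3, against 69.7, 76.4, 95.7, 66.3 and 73.3 CPM in IgG libraries 2 to 6. No aOX40 library reached the lowest IgG library, although aOX40 replicate 3 came close. The mean ± SD was 42.9 ± 16.2 CPM over the 3 aOX40 libraries, against 76.3 ± 11.5 CPM over the 5 IgG libraries. The log2 fold change was -0.83 (SE 0.26, interval -1.41 to -0.25), with an edgeR adjusted p of 0.0856, so it did not pass. The adjusted p was 0.0185 with DESeq2 and 0.0418 with limma voom with quality weights, and ran from 0.0185 to 0.321 over all 19 alternatives. Without aOX40 replicate 3 the log2 fold change was -1.17 (edgeR adjusted p = 0.0739).

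Stat3 followed the same order of aOX40 libraries. It had 123, 151 and 299 CPM in aOX40 libraries 1 to 3, against 342, 278, 362, 223 and 249 CPM in IgG libraries 2 to 6. Replicates 1 and 2 of aOX40 lay below every IgG library and replicate 3 lay inside the IgG range, at 2.44 times replicate 1. The log2 fold change of Stat3 was -0.60 (SE 0.30, interval -1.27 to 0.060, edgeR adjusted p = 0.245), and -1.08 without aOX40 replicate 3 (adjusted p = 0.0900). Within a library there were 0.248, 0.245 and 0.204 Stat2 counts per Stat3 count in aOX40 libraries 1 to 3, against 0.204, 0.275, 0.265, 0.298 and 0.294 in IgG libraries 2 to 6. The log2 ratio was -2.11 ± 0.16 in aOX40 and -1.92 ± 0.22 in IgG (SD, n = 3 and 5), and the groups overlapped (exact permutation p = 0.286, unchanged by adjustment), so a difference between the changes of the 2 STAT genes was not shown. Replicate 3 was also the highest aOX40 library for Jak1, Jak2 and Ifnar1.

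**Figure D3:**
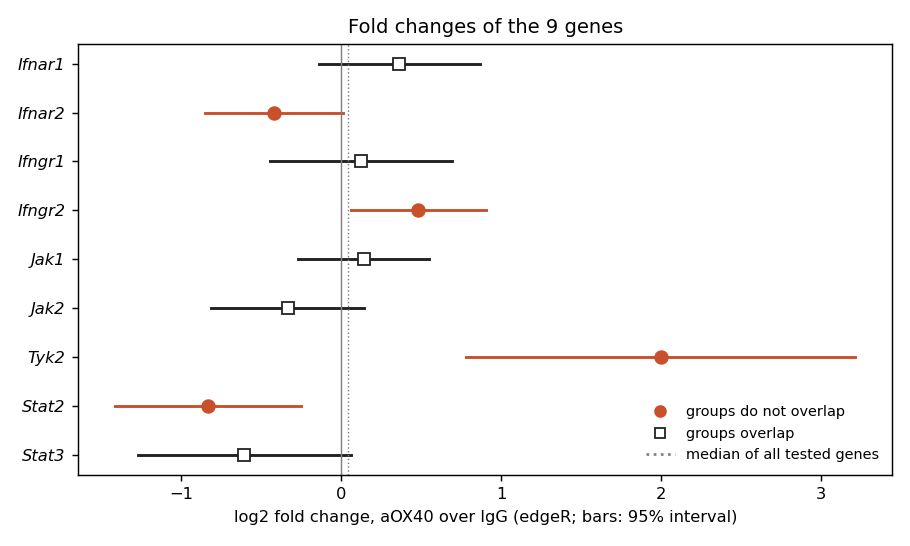
Log2 fold change of aOX40 over IgG (x axis) with its 95% interval from edgeR for each of the 9 genes. Filled circles mark the 4 genes whose libraries do not overlap; the intervals of Ifngr2, Tyk2 and Stat2 do not contain 0, and the dotted line at 0.045 is the median of all genes tested.

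Sequence around the start sites was searched for the elements that ISGF3 and STAT dimers bind. The windows, from RefSeq on GRCm38.p6, run from 250 bases before the start site to 50 bases from it on, and all 9 genes were matched by symbol. The interferon-stimulated response element was searched on both strands as GAAA and GAAA separated by any 2 bases (TTTC and TTTC on the other strand), and the gamma-activated site as TTC and GAA separated by any 3 bases, which reads alike on both strands. The first was present in 3.44% of all 32851 windows and the second in 8.3%. Of the 9 genes, 1 held the response element (Stat2) and 2 held the gamma-activated site (Ifnar1 and Ifnar2). These are shown because they belong to the receptor chains and the STAT of the type I pathway whose proportions are given above. They run 5′ to 3′ on the plus strand to 20 bases past the start site, with the match in capitals.
Stat2 (chr10:128270248-128270517): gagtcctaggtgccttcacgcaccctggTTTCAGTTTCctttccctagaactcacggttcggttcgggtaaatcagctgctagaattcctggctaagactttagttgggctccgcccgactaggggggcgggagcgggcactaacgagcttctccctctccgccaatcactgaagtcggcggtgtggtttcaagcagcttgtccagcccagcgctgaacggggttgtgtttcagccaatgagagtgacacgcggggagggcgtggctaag
Ifnar2 (chr16:91372533-91372802): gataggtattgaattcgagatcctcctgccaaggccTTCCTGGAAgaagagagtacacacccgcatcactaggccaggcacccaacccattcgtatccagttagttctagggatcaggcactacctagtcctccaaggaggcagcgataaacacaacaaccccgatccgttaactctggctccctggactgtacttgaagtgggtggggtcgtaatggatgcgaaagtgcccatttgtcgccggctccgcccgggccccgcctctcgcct
Ifnar1 (chr16:91484965-91485234): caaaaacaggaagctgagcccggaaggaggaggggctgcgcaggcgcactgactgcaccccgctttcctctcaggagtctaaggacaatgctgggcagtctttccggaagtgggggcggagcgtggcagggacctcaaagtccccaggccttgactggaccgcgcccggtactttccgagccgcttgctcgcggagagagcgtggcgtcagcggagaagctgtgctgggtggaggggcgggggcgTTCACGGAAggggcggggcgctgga
The match of Stat2 begins 222 bases before the start site, that of Ifnar2 begins 214 bases before it and that of Ifnar1 begins 5 bases before it and runs across it. The matches of different motifs did not overlap. A match of letters is a description of the window and not a measured binding site.

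Levels of different genes were compared as CPM per kb of annotated exon (GENCODE M21). This length joins all annotated exons of a gene and exceeds its longest transcript unevenly. It was 7227 bases for Jak1, with a longest transcript of 4906, and 3767 for Ifngr2, with 3708. The order of genes at similar levels depends on this choice of length. In aOX40 the order was Ifngr1 (63.2 ± 13.6), Ifnar2 (62.2 ± 14.1), Ifngr2 (41.3 ± 3.26), Jak1 (32.6 ± 4.51), Stat3 (20.1 ± 9.95), Ifnar1 (19.1 ± 1.93), Jak2 (15.3 ± 3.08), Stat2 (7.23 ± 2.73) and Tyk2 (1.53 ± 0.78) CPM per kb (SD, n = 3). The ranges of Ifngr1 and Ifnar2 overlapped, as did those of each neighbour from Jak1 to Jak2 in this order. In IgG the order was Ifnar2 (83.2 ± 4.10), Ifngr1 (57.9 ± 15.9), Stat3 (30.5 ± 6.26), Ifngr2 (29.6 ± 4.78), Jak1 (29.5 ± 3.71), Jak2 (19.2 ± 3.16), Ifnar1 (14.8 ± 3.54), Stat2 (12.9 ± 1.94) and Tyk2 (0.37 ± 0.24) CPM per kb (SD, n = 5). There the ranges of Ifnar2 and Ifngr1 met, as did those of each neighbour from Stat3 to Jak1 and from Jak2 to Stat2. In both groups, then, a ligand-binding receptor chain led, Ifnar1 stood well under Ifnar2, and Tyk2 was last.

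**Figure D4:**
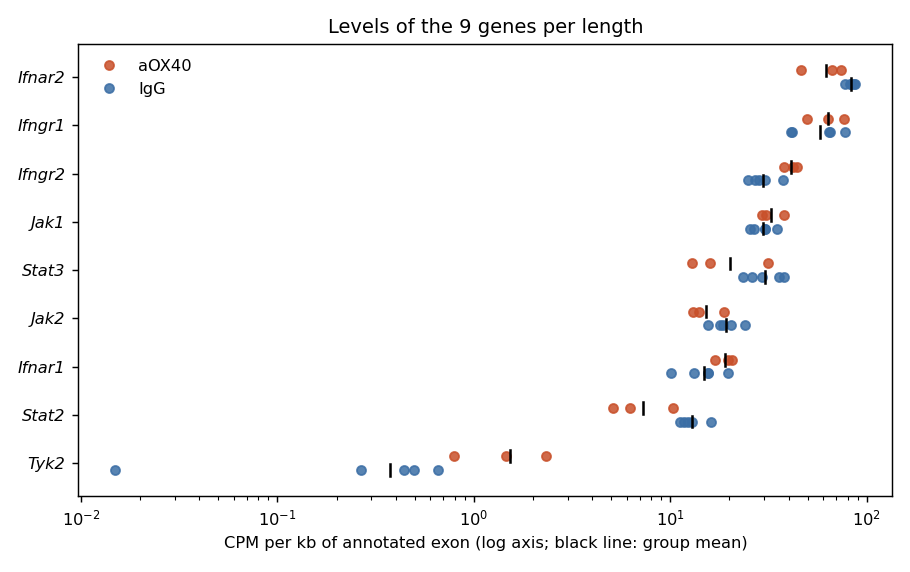
CPM per kb of annotated exon (x axis, log scale) for the 9 genes in each library, aOX40 above IgG within each gene, with black lines at the group means. Tyk2 is lowest in every library, with the IgG library of replicate 2 far to the left.

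The genes whose pattern over the 8 libraries was most like each of these were found by the root mean square difference of log2 CPM after each gene was centred on its own mean, among genes with a mean of at least 10 CPM. For Stat2 they were Ankrd11 (difference 0.139) and Ogfr (0.156), where the SD of Stat2 over the libraries was 0.521 on the log2 scale. Ankrd11, an ankyrin repeat gene, was at 66.1 ± 15.95 CPM in aOX40 libraries, against 110 ± 10.3 CPM in IgG libraries (SD, n = 3 and 5; log2 fold change -0.73, edgeR adjusted p = 0.0676). For Stat3 they were Dgkh (0.149) and Cwc25 (0.152), where the SD of Stat3 was 0.519. For Ifnar2 they were Gtf2a2 (0.0991) and Ppp4c (0.0999), with 0.281 for Ifnar2 itself, and for Ifnar1 they were Ran and Yipf3 (both 0.132), with 0.325 for Ifnar1. The nearest to Ifngr1 were Osbpl9 (0.147) and Vta1 (0.167), and to Ifngr2 Gm14048 (0.108) and Psmd11 (0.111). The nearest to Jak1 were Pla2g7 (0.104) and Map2k1 (0.113), and to Jak2 Rbm38 (0.101) and Ssr3 (0.115). The nearest to Tyk2 were Psmd5 (0.564) and Tnf (0.781), with 1.957 for Tyk2. None of the 9 genes was nearest to another of them, with 4941 genes compared for each (4942 for Tyk2). Tyk2 itself was under the minimum of 10 CPM and so could not be named as nearest. Whether the 9 genes vary together was not tested.

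Other genes of the JAK and STAT families and Irf9 were measured beside these genes, and none of those examined passed. Of these 6 further genes, 0 had an edgeR adjusted p below 0.05 and the median log2 fold change was -0.011. Irf9, the DNA-binding partner in ISGF3, had 137, 133 and 147 CPM in aOX40 libraries 1 to 3, against 216, 201, 397, 153 and 166 CPM in IgG libraries 2 to 6. The groups did not overlap, IgG replicate 4 stood far above the rest, and the log2 fold change was -0.70 (SE 0.30, edgeR adjusted p = 0.182). Stat6, which serves the IL-4 receptor, was at 187 ± 49.4 CPM in aOX40 libraries, against 184 ± 35.1 CPM in IgG libraries (0.024, SE 0.23). Jak3, the kinase of the common gamma chain, was at 23.7 ± 9.17 CPM in aOX40 libraries, against 16.9 ± 5.43 CPM in IgG libraries (0.49, SE 0.33). Stat5b was at 17.7 ± 8.25 CPM in aOX40 libraries, against 18.3 ± 4.49 CPM in IgG libraries, and Stat4 at 16.1 ± 11.6 CPM in aOX40 libraries, against 22.8 ± 18.0 CPM in IgG libraries. Exons of Stat4 are shared with another gene model on the same strand, at 13.8 CPM in aOX40 libraries, against 8.2 CPM in IgG libraries, so reads could be split between them. Stat5a, which overlaps Stat3 on the other strand, was at 3.60 ± 2.21 CPM in aOX40 libraries, against 2.84 ± 0.85 CPM in IgG libraries. The 10 interferon genes looked for were not analysed here.

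Among 14 tested of 23 listed receptor chains that use the same kinases, 3 fell and 0 rose in aOX40, with a median log2 fold change of -0.26. The 3 were the receptor chains for GM-CSF and related cytokines, which signal through JAK2. Csf2rb, their shared beta chain, had 419, 284 and 393 CPM in aOX40 libraries 1 to 3, against 935, 1185, 1306, 1542 and 1502 CPM in IgG libraries 2 to 6 (log2 fold change -1.82, SE 0.23, edgeR adjusted p = 0.00815). Csf2rb2, the IL-3-specific beta chain of mice, fell by 1.65 on the log2 scale, but it has a near copy in Csf2rb, so reads could be split between them. Csf2ra, the alpha chain, fell by 0.93 (edgeR adjusted p = 0.0492) and was not called in 13 of 19 alternatives. The size of each of these log2 fold changes was above that of Jak1, Jak2 and Jak3 and, for all 3, under that of Tyk2.

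Of 19 tested negative regulators of the pathway, 1 rose and 2 fell, with a median of -0.13. Ptpn6, the phosphatase SHP-1, had 346, 501 and 419 CPM in aOX40 libraries 1 to 3, against 77.4, 174, 218, 144 and 156 CPM in IgG libraries 2 to 6. All aOX40 libraries were above all IgG libraries, and the log2 fold change was 1.46 (SE 0.28, edgeR adjusted p = 0.0207). Socs1 and Cish are induced by STATs and restrain them, and Socs1 fell by 2.04 and Cish fell by 1.35 on the log2 scale. The gene model Gm20531 lies on the other strand over Ptpn6, at 4.35 CPM in aOX40 libraries, against 3.01 CPM in IgG libraries.

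The interferon-induced genes had lower medians than the 9 genes, a description with no test. Of 36 tested genes of the type I interferon list, which includes Stat2, 13 fell and 0 rose, and the median log2 fold change was -1.05. It stayed at -1.05 with Mx2, which had no count in any aOX40 library, set at a floor of 3 counts per library. Slfn5, a schlafen gene, had 22.9, 15.0 and 16.3 CPM in aOX40 libraries 1 to 3, against 67.4, 62.9, 179, 60.3 and 78.2 CPM in IgG libraries 2 to 6 (log2 fold change -2.31, SE 0.42, edgeR adjusted p = 0.0167). Rsad2, which encodes the antiviral protein viperin, fell by 2.00 and Isg20, an exonuclease gene, by 1.55. Trim30a, an inhibitor of inflammatory signalling, fell by 1.01. The others that fell were Isg15, Oas2, Oasl1, Ifi47, Xaf1, Rtp4, Parp14, Herc6 and Slfn4. Isg15 has a near copy in an unnamed gene model, and exons of Oasl1, Ifi47, Herc6, Rtp4, Parp14 and Slfn5 overlap other gene models of the table. IgG replicate 4 was the highest IgG library for Rsad2 and Slfn5, as it was for Stat2 and Irf9; without it 13 genes of the list fell and the median was -0.73.

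Among the 27 interferon-gamma-induced genes tested, 5 fell and 0 rose, with a median of -0.70. Irgm1, an immunity-related GTPase gene, had 664, 618 and 989 CPM in aOX40 libraries 1 to 3, against 1993, 1696, 2421, 1327 and 2433 CPM in IgG libraries 2 to 6 (log2 fold change -1.38, SE 0.26, edgeR adjusted p = 0.0191). The other 4 were Socs1, Cd274, Nlrc5 and Fcgr4, and exons of Nlrc5 overlap a gene model on the other strand. Of 22 tested genes of the STAT3 list, 3 rose and 3 fell, with a median of 0.076. Pim1, a kinase gene induced by STATs, fell by 1.13 (the gene model Gm26885 lies on its other strand, at 20.6 CPM in aOX40 libraries, against 26.2 CPM in IgG libraries), Bcl2l1 by 0.93 and the TNF receptor gene Tnfrsf1a by 1.23, while Saa3, Mmp9 and the haptoglobin gene Hp rose by 4.14, 1.28 and 1.14. Of 19 alternatives, Tnfrsf1a was not called in 13, Mmp9 in 12, Hp in 10 and Bcl2l1 in 10. With no filter or with legacy edgeR the STAT3 list had 1 gene that rose and 1 that fell. Of 13 mitochondrial messenger RNAs, 2 rose (mt-Nd4 and mt-Cytb) and the median was 0.735. Each of these 2 was not called in 12 of 19 alternatives. The number that rose was 0 in edgeR with median-of-ratios factors, upper quartile factors, no filter or legacy edgeR, 4 with DESeq2, 2 with limma voom and 7 with total counts alone. A near copy of mt-Nd4 is annotated as Gm28439.

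The counts of these lists depend on which libraries are kept. The edgeR test called 0 genes in any list without aOX40 replicate 2 and 0 of all genes (2230 at an unadjusted p below 0.05; limma voom and DESeq2 were not run without it), and without aOX40 replicate 3 the type I list had 3 that fell and the interferon-gamma list 1. The medians of these lists were -0.975 and -0.63 without replicate 2, and -1.14 and -1.03 without replicate 3. Without aOX40 replicate 1 the type I list had 8 that fell and the STAT3 list 0, with 2 that rose. Without IgG replicate 2 the type I list had 11 that fell, and without IgG replicate 3 or IgG replicate 6 it had 9. The STAT3 list had 1 that fell without IgG replicate 3, 4 or 6 and 0 without aOX40 replicate 3. The count of mitochondrial messenger RNAs that rose was 5 without IgG replicate 4 and 0 without any other single library. The lists were chosen with earlier results of these data known, so their counts are a description.

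**Figure D5:**
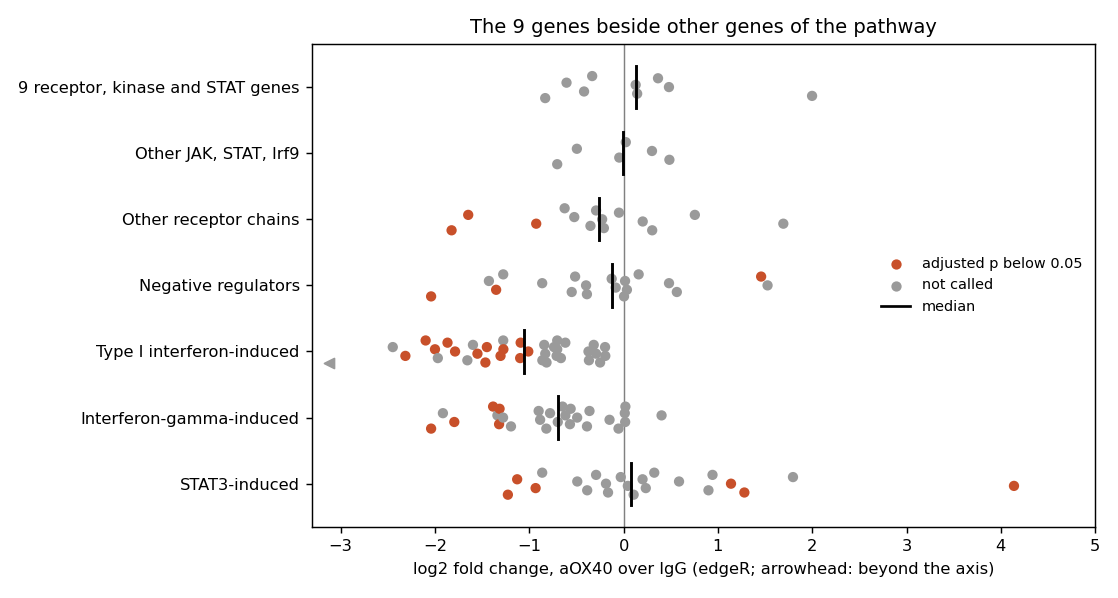
Log2 fold change of aOX40 over IgG (x axis) of each tested gene, in rows for the 9 genes and for the other lists; orange-red points passed the edgeR test, grey ones did not, and black lines are medians. The 9 genes and the other JAK and STAT genes have no orange-red point, the type I interferon row has 13, all below 0, and its arrowhead is Mx2, which is listed at 0 in the 3 aOX40 libraries.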

How the data were processed

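Estimated counts by gene symbol, unscaled, were deposited for 8 libraries. Per the submitters' processing notes the authors used STAR 2.6.0, Subread and featureCounts 1.5.1 with build mm10. Not given in the sources used here are the settings, annotation, strand setting and the step that gave fractional counts (63.4% of values were whole within 0.01). Groups and replicate numbers came from the sample titles.

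Counts were rounded, filtered with filterByExpr, scaled with TMM factors and tested with edgeR 4.0.16 (quasi-likelihood, legacy=FALSE, group as the only term; limma 3.58.1, R 4.3.3). P-values were adjusted by Benjamini-Hochberg over 13278 genes, with a threshold of 0.05. The table of fold changes takes aOX40 over IgG; SEs come from the F statistic and the 95% intervals from its degrees of freedom. Levels are CPM with TMM factors. Totals, marker sums and 5 gene ratios (0.5 count added to each gene) were compared with exact two-sided permutation tests over 56 splits (scipy 1.17.1). Totals and marker sums were not adjusted. Figures used matplotlib 3.10.9.

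Positions, exon lengths and overlaps came from GENCODE M21 on GRCm38. BLAST+ 2.17.0 looked for other genes whose transcripts match at 95% identity or more over at least 50% of the length; the 9 genes had 0. A further gene of the pathway is not reported here. Named were all 9 genes, the other JAK and STAT genes, and genes of the pathway lists with an adjusted p below 0.05. The 9 genes and all lists were chosen with earlier results of these data known. Alternatives were other scalings and filters, DESeq2 1.42.0, limma voom, robust and legacy edgeR, a replicate block and each library left out; legacy edgeR and the list counts under each alternative were added after seeing the data, and legacy=FALSE was chosen after both settings had been run. The fit was tested on simulated data as a check of the code. The changes planted there were larger than those of most of these 9 genes, so it says nothing about their calls.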

Additional observations from a re-analysis of the deposited data

Results flagged for a closer look

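Of 62 measures examined in the 5 IgG libraries, 5 had a library far from the other 4, where chance flags about 1 in 20. The log2 ratio of Tyk2 to Jak1 was -10.9 in IgG replicate 2. The melanoma markers summed to 389 CPM in IgG replicate 2. In IgG replicate 4, Irf9 was at 397 CPM, Rsad2 at 4505 CPM and Slfn5 at 179 CPM.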

How the results depend on the processing

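Of all genes, 750 were called with edgeR, 452 with no filter on low counts, 320 with legacy edgeR, 1433 with DESeq2 and 1305 with limma voom with quality weights, and between 0 and 589 with each library left out. Without aOX40 replicate 2 the count was 0, without aOX40 replicate 3 it was 59, without IgG replicate 3 it was 497 and without IgG replicate 6 it was 475. Total counts alone called 874 higher and 246 lower, against 351 and 399.

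Of the 9 genes, 0 were called in edgeR and in each analysis without a library. Total counts alone called 2 (Ifngr2 and Tyk2), DESeq2 called 1 and limma voom with quality weights called 1, in both cases Stat2. Over all 13278 genes these settings called 1120, 1433 and 1305, in that order. Fold changes of the 9 kept their side of 0 under all alternatives run, except that Ifngr1 ranged from -0.033 to 0.283 with each library left out; the alternative with at least 10 counts in every library gave no value for Tyk2. Among the other JAK and STAT genes, Stat4, Stat5a, Stat5b and Stat6 changed side. Stat6 was -0.036 with upper quartile factors. Stat5b was 0.289 with total counts alone and 0.013 with limma voom with quality weights, where Stat5a was -0.307. With each library left out, Stat4 ranged from -1.252 to 0.091, Stat5a from -0.133 to 0.759, Stat5b from -0.468 to 0.236 and Stat6 from -0.143 to 0.224. The cause was not tested.

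With the replicate number as a block, where only numbers 2 and 3 occur in both groups, 0 of 9 and 0 of all genes were called (2594 at an unadjusted p below 0.05; limma voom and DESeq2 were not run with the block), Stat4 was 0.367 and Stat5b 0.251. Deviations of same-numbered libraries correlated at 0.022 and 0.047. These few values cannot show whether the libraries share more than a number, such as a batch. The 5 gene ratios kept their direction with 1 count added and without each library; with 2 aOX40 libraries the smallest possible p is 0.0952, so these say nothing about calls. Tyk2 had 5 counts in IgG replicate 2 and 177 in IgG replicate 3, the library with the lowest total; the cause was not tested.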
